A study of Mus musculus with 10 samples.

Results

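Acute phase and plasma protein genes were followed across 10 mouse livers. The set holds 36 genes, chosen by symbol from a table of 24537 gene symbols, and all 36 were found there. They were divided by their known response to inflammation. The division gave 17 secreted positive acute phase proteins, 5 receptors and related membrane or antagonist genes, 4 induced regulators, 4 secreted negative acute phase proteins and 6 other plasma proteins. After the filter on low counts 35 of the 36 were tested, A2m being the exception.

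RNA came from whole livers of male mice that had all received an adeno-associated virus of serotype 8 coding for saCas9, the small Cas9 of Staphylococcus aureus, and a guide RNA. Young controls were 3 mice with a guide to Rosa26, a locus used as a neutral site, injected at 7 months of age and sampled at 9 months. Old controls were 3 mice with the Rosa26 guide, injected at 23 months and sampled at 25 months. The livers labelled Cd44 knockout came from 4 mice injected and sampled at the same ages as the old controls, 2 labelled g4 (replicates 1 and 2) and 2 labelled g2 (replicates 3 and 4), read here as different Cd44 guides. No liver without virus was analysed here. Cas9 was driven by TBG, a promoter active in hepatocytes, so the other cells of the liver were not the target of editing and keep Cd44, which encodes a receptor for hyaluronan.

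The acute phase response is the change in the plasma proteins made by hepatocytes when interleukin 6, interleukin 1 and related cytokines reach the liver. Interleukin 6 acts through STAT3, and interleukin 1 acts through its receptor and NF-kappaB, with C/EBP factors acting on many of the same promoters. Positive acute phase proteins such as serum amyloid A are then made in excess, and negative ones such as albumin and transthyretin are made less. In the mouse, serum amyloid A and serum amyloid P are the classical strong responders, whereas C-reactive protein responds weakly.

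Total counts lay between 15821198 and 21710228 per liver. Values are given as CPM, counts scaled to library size with TMM factors, and a gene is said to rise or fall only where edgeR's quasi-likelihood test gave an adjusted p under 0.05 over the 13909 genes tested. The labels call the livers separate samples but do not say more on their origin. Each liver was read here as coming from a separate mouse. The edgeR p-values rest on a spread for each gene that is shared over all 10 livers, also those outside the groups compared. Cd44 itself had 10.1 to 16.6 CPM in young controls, 14.2 to 30.0 in old controls and 13.1 to 29.0 in the livers labelled knockout. Its log2 fold change between the livers labelled knockout and old controls was -0.25 (SE 0.30, adjusted p 0.896 by edgeR), so directions given for the knockout rest on the labels. By guide, Cd44 had 18.9 and 29.0 CPM with g4 and 17.6 and 13.1 CPM with g2. Against old controls its log2 fold change was 0.04 with g4 (SE 0.33) and -0.60 with g2 (SE 0.34, edgeR adjusted p 0.998 and 0.778). Summed CPM of 6 hepatocyte markers was between 8005 and 14928 in every liver, so all 10 carried hepatocyte RNA as labelled. Old control replicate 3 stood apart from the other old livers in these genes, and its library has a name outside the numbered run of the others. It also differed over all genes, with chi-square per degree of freedom of 170 and 80.2 against old control replicates 1 and 2. Between replicates 1 and 2 it was 65.7. Leaving replicate 3 out moved the genes called between old and young controls from 3172 to 5327. The state of that liver and a separate library preparation cannot be told apart, and several results that rest on it are given with and without it.

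Members of the set made up between 9.42% and 13.2% of all counts in a liver. To compare genes with each other, mean CPM was divided by the length of the principal transcript in kilobases. By that measure of level in young controls, Alb led with 39628 ± 6411 CPM per kilobase (SD, n = 3), followed by Ttr with 6728 ± 379, Hp with 4140 ± 250, Hpx with 3908 ± 345 and Ambp with 2599 ± 446 (SD, n = 3 each). Saa1, Orm1 and Saa2 came next, at 1984 ± 387, 1950 ± 329 and 1279 ± 283 CPM per kilobase (SD, n = 3 each), and the difference between Saa1 and Orm1 was far smaller than either SD. In old controls Saa1 was at 358 ± 327 and Saa2 at 181 ± 152 CPM per kilobase (SD, n = 3 each), below Itih4 at 635 ± 398 (SD, n = 3), which they had exceeded in young controls. Cebpd was lowest of the tested members, at 3.48 ± 0.382 CPM per kilobase in young controls (SD, n = 3).

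**Figure D1:**
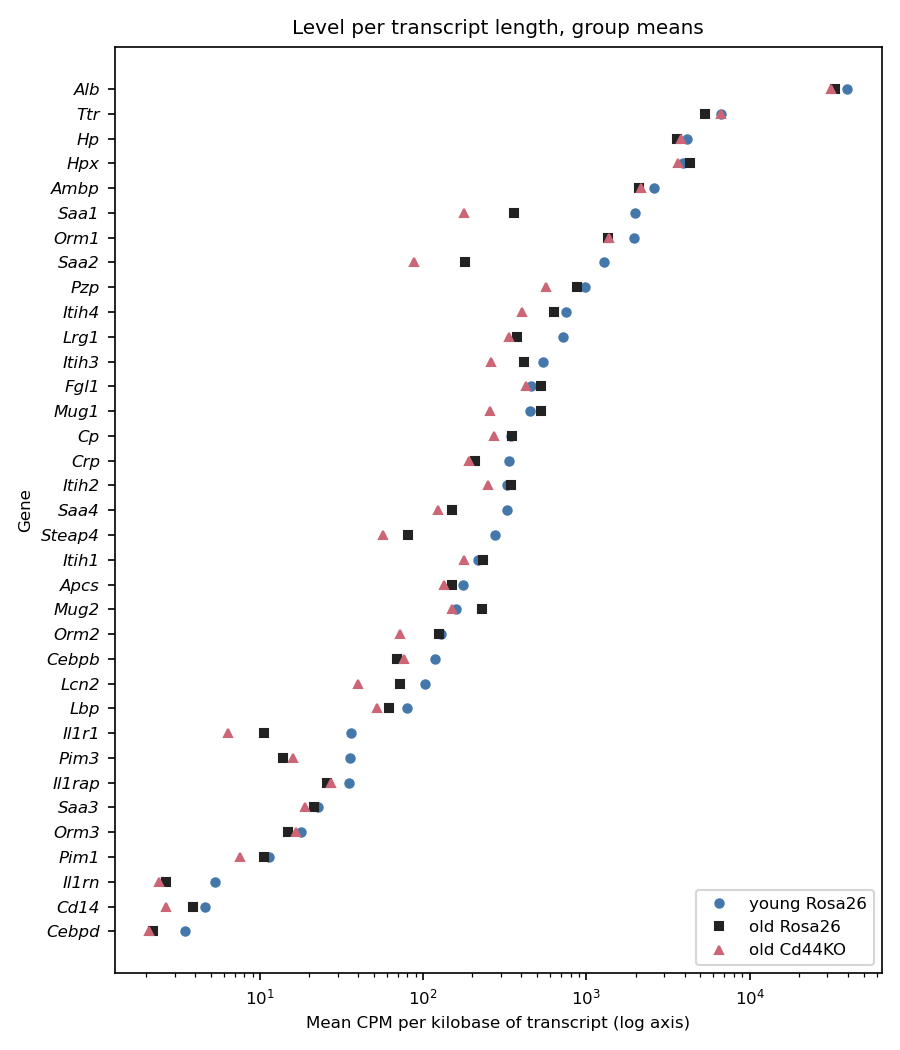
Mean CPM per kilobase of transcript (log axis) for the 35 tested members, ordered by their level in young Rosa26 livers (blue circles, n = 3), with old Rosa26 (black squares, n = 3) and old Cd44KO livers (red triangles, n = 4). Alb leads in every group, and Saa1 moves from 1984 in young to 358 in old Rosa26 and 179 in old Cd44KO livers.

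The widest differences lay in the serum amyloid A genes, which sit side by side on chromosome 7 and did not move together. Their promoters are shown because Saa1 and Saa2 fell in the old controls while the neighbouring Saa3 had almost the same level at both ages. The windows run from 250 bases before to 50 bases after the RefSeq start on GRCm38.p6, each read 5′ to 3′ on the strand of its gene. They lie at chr7:46742931-46743230 (minus strand) for Saa1, chr7:46751583-46751882 (plus strand) for Saa2, chr7:46715627-46715926 (minus strand) for Saa3 and chr7:46732554-46732853 (minus strand) for Saa4. Capitals mark the letters TTGCNNAA, a C/EBP-type motif, searched on both strands.
Saa1: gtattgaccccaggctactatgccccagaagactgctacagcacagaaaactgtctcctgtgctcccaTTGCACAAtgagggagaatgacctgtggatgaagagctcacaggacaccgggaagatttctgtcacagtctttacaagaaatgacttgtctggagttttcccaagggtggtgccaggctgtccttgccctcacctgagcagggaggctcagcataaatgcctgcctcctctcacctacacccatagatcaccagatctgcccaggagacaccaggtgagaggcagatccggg
Saa2: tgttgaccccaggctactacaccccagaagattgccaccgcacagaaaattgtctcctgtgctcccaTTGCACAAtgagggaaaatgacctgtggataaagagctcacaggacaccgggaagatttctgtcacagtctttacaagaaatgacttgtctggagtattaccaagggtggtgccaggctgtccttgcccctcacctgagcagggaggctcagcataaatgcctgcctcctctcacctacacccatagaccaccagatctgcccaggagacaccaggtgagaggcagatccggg
Saa3: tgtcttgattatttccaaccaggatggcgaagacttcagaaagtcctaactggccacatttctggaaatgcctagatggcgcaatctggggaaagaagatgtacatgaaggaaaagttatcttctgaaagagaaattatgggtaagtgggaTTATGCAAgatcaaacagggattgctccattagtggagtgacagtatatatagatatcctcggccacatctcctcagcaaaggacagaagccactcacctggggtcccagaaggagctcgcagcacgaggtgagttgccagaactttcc
Saa4: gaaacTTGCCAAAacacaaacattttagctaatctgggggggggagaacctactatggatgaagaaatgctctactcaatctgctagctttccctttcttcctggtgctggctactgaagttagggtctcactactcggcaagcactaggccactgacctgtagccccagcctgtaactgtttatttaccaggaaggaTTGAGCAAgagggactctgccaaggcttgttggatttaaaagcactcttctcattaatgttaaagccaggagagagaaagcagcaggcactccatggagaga
The Saa1 and Saa2 windows were identical in 287 of 301 alignment columns (95.3%), with the motif at -182 to -175 and at -183 to -176 from the start. Saa1 shared 50.1% of columns with Saa3, whose match lay at -99 to -92, and 44% with Saa4, whose matches lay at -245 to -238 and -52 to -45. Among all members, 28 had a promoter in the RefSeq table and 13 of these (46.4%) held the motif, against 12.2% of the 27025 genes with a promoter of the same length. The holders were Alb, Cp, Hpx, Il1r1, Itih2, Lcn2, Orm2, Orm3, Saa1, Saa2, Saa3, Saa4 and Steap4. A STAT-type motif, TTCNNNGAA, which reads the same on both strands, was found in Apcs, Itih4 and Steap4 (10.7% of members and 9.55% of all promoters). A kappaB consensus, GGGRNWYYCC (R for A or G, W for A or T, Y for C or T), was searched on both strands. It was found in Il1r1 and Steap4 (7.14% of members and 5.14% of all promoters). Near matches were not counted for any motif, so a window without a match may still hold a similar site. No match of one motif overlapped a match of another in the windows of the members. A match is a run of letters and was not tested as a binding site.

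Between old and young controls, 7 of the 35 tested members fell and 0 rose. They were the secreted proteins Saa1, Saa2 and Crp, the interleukin 1 receptor genes Il1r1 and Il1rap, and the regulators Cebpb and Pim3. Over all genes tested, 22.8% passed in either direction, 8.66% lower and 14.1% higher. The median log2 fold change was -0.30 over the members and 0.04 over all genes. By class, 3 of 17 positive acute phase genes fell, with a class median of -0.26, and 0 of 4 negative acute phase genes passed, with a class median of -0.27. Without old control replicate 3, 17 members fell and 0 rose, against 17.0% of all genes lower, and the median of the positive class was -0.95. That liver was the highest old control in 29 of 35 members, against 37.0% of all genes. Leaving it out lowers the old mean in most members by construction. The shares of all genes are therefore no like background for counts without it, here or below. Without any other single liver of the comparison, 1 or 2 members passed. DESeq2 called 9 members, the 7 with Cebpd and Saa4, of 3825 genes. Another scaling (RLE factors) left 5 members without Saa1 and Il1rap, and no filter on low counts left 5 without Crp and Il1rap. With only the compared groups fitted, so that the other livers did not enter the spread, 2 members passed, Pim3 and Saa2. With library size taken without the members themselves, and also without TMM factors, the median of all genes was 0.35. In that setting Pim3, Saa2 and Il1r1 were lower and Mug2 was higher.

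**Figure D2:**
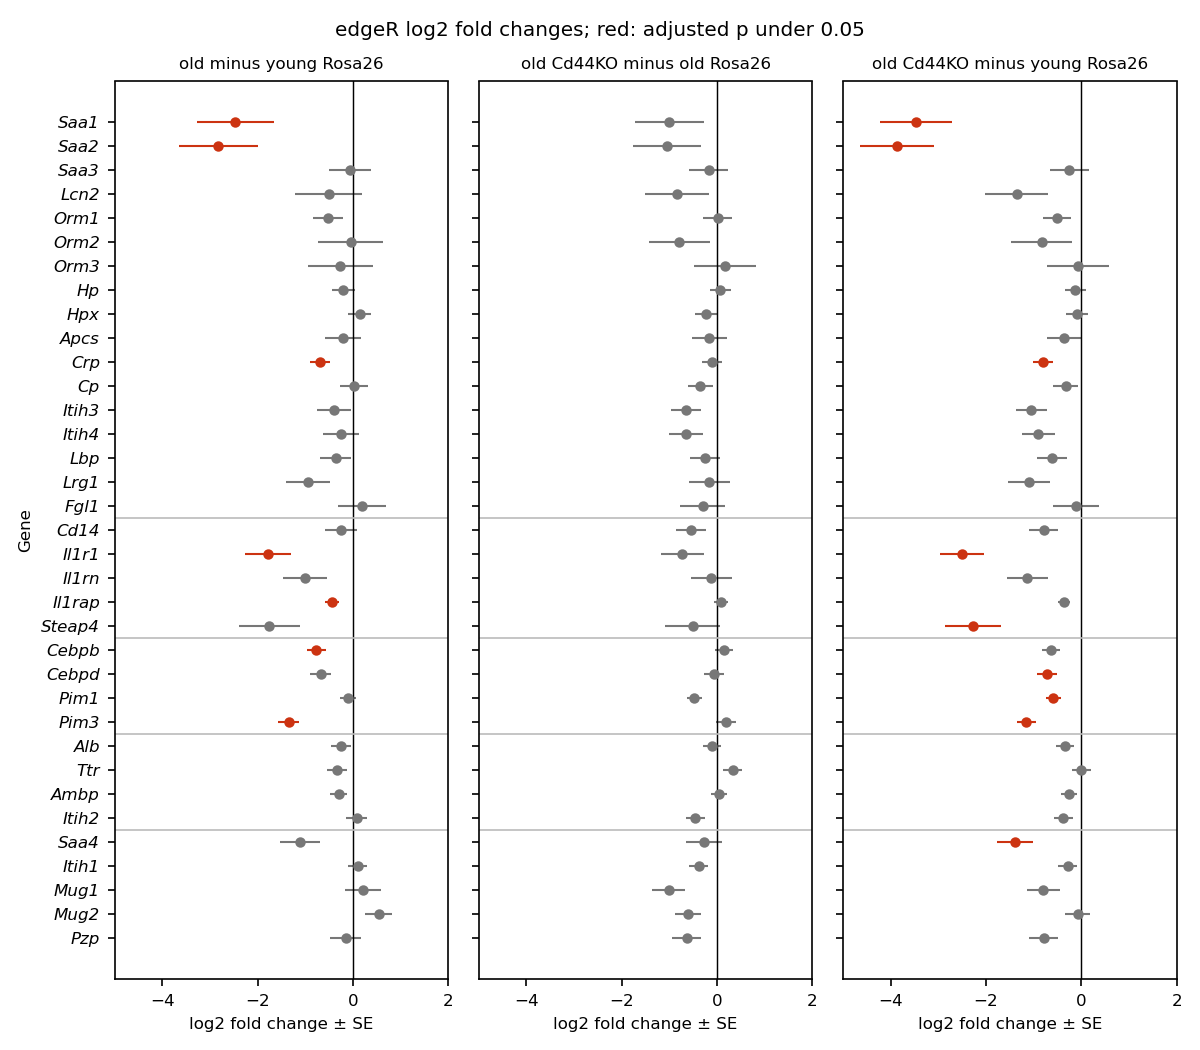
Log2 fold change (points) ± SE (bars) from edgeR for the 35 tested members, for old against young Rosa26 livers, old Cd44KO against old Rosa26 livers and old Cd44KO against young Rosa26 livers; grey lines part the classes. Red marks an adjusted p under 0.05: 7 members at left, 0 in the middle and 9 at right, all to the left of 0.

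Saa1, an apolipoprotein of high density lipoprotein that is released in inflammation, had 1061, 1480 and 1084 CPM in young controls and 50.7, 165 and 438 CPM in old controls. In the livers labelled knockout it had 99.9 and 257 CPM with g4 and 47.1 and 31.9 CPM with g2. All 7 old livers were below all young livers, and the old livers themselves spanned 31.9 to 438 CPM. Its log2 fold change with age was -2.47 (SE 0.81, adjusted p 0.0492 by edgeR), or 5.55-fold lower. The call was lost when any of the young livers or old control replicate 1 or 2 was left out, with adjusted p up to 0.149. It was also lost with RLE factors, with library size without the members and with only the compared groups fitted (edgeR adjusted p 0.0502, 0.0574 and 0.0532). Without old control replicate 3 the change was -3.49 (adjusted p 0.0123 by edgeR).

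Saa2, its close copy, had 691, 1042 and 768 CPM in young controls and 34.7, 91.4 and 228 CPM in old controls. The livers labelled knockout had 41.0 and 145 CPM with g4 and 26.8 and 14.3 CPM with g2. As with Saa1, every old liver was lower than every young one. The log2 fold change with age was -2.82 (SE 0.82, adjusted p 0.0332 by edgeR), or 7.07-fold lower, and it too lost its call without any single young liver or old control replicate 1 or 2. Saa1 and Saa2 transcripts are 94.4% identical over 606 aligned bases, so the division of reads between them is uncertain. Saa1 and Saa2 together had 1752 to 2522 CPM in young controls, 85.3 to 666 CPM in old controls and 46.2 to 403 CPM in the livers labelled knockout.

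Saa3, which is made by macrophages and other cells as well as hepatocytes, had 11.1, 16.9 and 9.50 CPM in young controls and 9.49, 17.7 and 8.63 CPM in old controls. The groups overlapped, and the log2 fold change was -0.06 (SE 0.44, 95% interval -1.03 to 0.90, adjusted p 0.93 by edgeR). The summed level of 6 Kupffer cell markers was 149 to 220 CPM in young controls and 275, 915 and 614 CPM in old control replicates 1 to 3. Of these 6 genes 4 rose with age and 0 were at 0 CPM, and their part in the Saa3 level was not tested. Saa4, the constitutive member carried on high density lipoprotein, had 719, 672 and 651 CPM in young controls and 189, 193 and 565 CPM in old controls. Its livers labelled knockout had 278 and 391 CPM with g4 and 193 and 174 CPM with g2, so all 7 old livers were below the young ones. The log2 fold change with age, -1.11 (SE 0.42), missed the threshold (adjusted p 0.0746 by edgeR). It passed with DESeq2 (adjusted p 0.0287) and, by edgeR, without old control replicate 3, at -1.84 (adjusted p 0.00298).

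Crp, the C-reactive protein, a pentraxin that binds phosphocholine, had 574, 530 and 596 CPM in young controls against 255, 332 and 463 CPM in old controls. With g4 the livers labelled knockout had 365 and 369 CPM, and with g2 they had 323 and 241 CPM. No old liver reached the young range. The log2 fold change with age was -0.69 (SE 0.22, adjusted p 0.045 by edgeR), lost without any single young liver or old control replicate 1 or 2. It was also lost with no filter and with only the compared groups fitted (edgeR adjusted p 0.053 and 0.0864), and with library size without the members it was -0.40 (adjusted p 0.163 by edgeR). Apcs, the serum amyloid P component and the other pentraxin of the set, had 148, 166 and 195 CPM in young controls and 92.2, 109 and 238 CPM in old controls. Old control replicate 3 was the highest of all livers for Apcs, the groups overlapped, and the log2 fold change was -0.21 (SE 0.38, adjusted p 0.716 by edgeR). Without that liver it was -0.75 (adjusted p 0.0936 by edgeR).

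Lcn2 encodes lipocalin 2, which binds bacterial siderophores, and is made by neutrophils as well as by inflamed hepatocytes. It had 68.1, 149 and 65.0 CPM in young controls, 14.5, 56.4 and 128 CPM in old controls, and 42.2, 69.1, 23.9 and 11.5 CPM in livers labelled knockout, replicates 1 to 4. The groups overlapped, with a log2 fold change of -0.51 with age (SE 0.71, adjusted p 0.632 by edgeR). Without old control replicate 3 it was -1.41 (adjusted p 0.147 by edgeR). Summed CPM of 10 neutrophil markers was 7.79 to 16.3 in young controls, and 27.8, 305 and 26.5 in old control replicates 1 to 3. It was 16 to 33.2 in the livers labelled knockout, and Mpo, Camp and Ltf were at 0 in some livers. The part of these cells in the Lcn2 level was not tested.

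Hp, haptoglobin, which captures free haemoglobin, had 5499, 5934 and 5272 CPM in young controls and 4579, 4210 and 5771 CPM in old controls. These ranges overlapped, and the log2 fold change was -0.20 (SE 0.24, 95% interval -0.72 to 0.32, adjusted p 0.569 by edgeR). Orm2, an orosomucoid that carries small molecules in plasma, had 71.8, 104 and 124 CPM in young controls and 28.0, 45.8 and 217 CPM in old controls. Its log2 fold change was -0.05 (SE 0.68, adjusted p 0.967 by edgeR), and it was -1.44 without old control replicate 3, whose value was the highest of all livers (adjusted p 0.0538 by edgeR). Orm1 and Orm2 transcripts are 91% identical over 775 aligned bases, which leaves their division of reads uncertain as well. Of the other positive genes, log2 fold changes with age ran from -0.94 for Lrg1, a leucine-rich glycoprotein (adjusted p 0.169 by edgeR), to 0.19 for Fgl1, a fibrinogen-like protein secreted by hepatocytes (adjusted p 0.812 by edgeR). Fgl1 was at -0.38 without old control replicate 3 (adjusted p 0.567 by edgeR). Orm1, Orm3, Itih3, Itih4, Lbp and Lrg1 fell when old control replicate 3 was left out, with log2 fold changes of -1.77 for Orm3 to -0.90 for Itih4 (adjusted p 0.0236 and 0.0247 by edgeR). Itih3 and Itih4 belong to the inter-alpha-trypsin inhibitor family, whose heavy chains bind hyaluronan, and Lbp binds bacterial lipopolysaccharide.

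**Figure D3:**
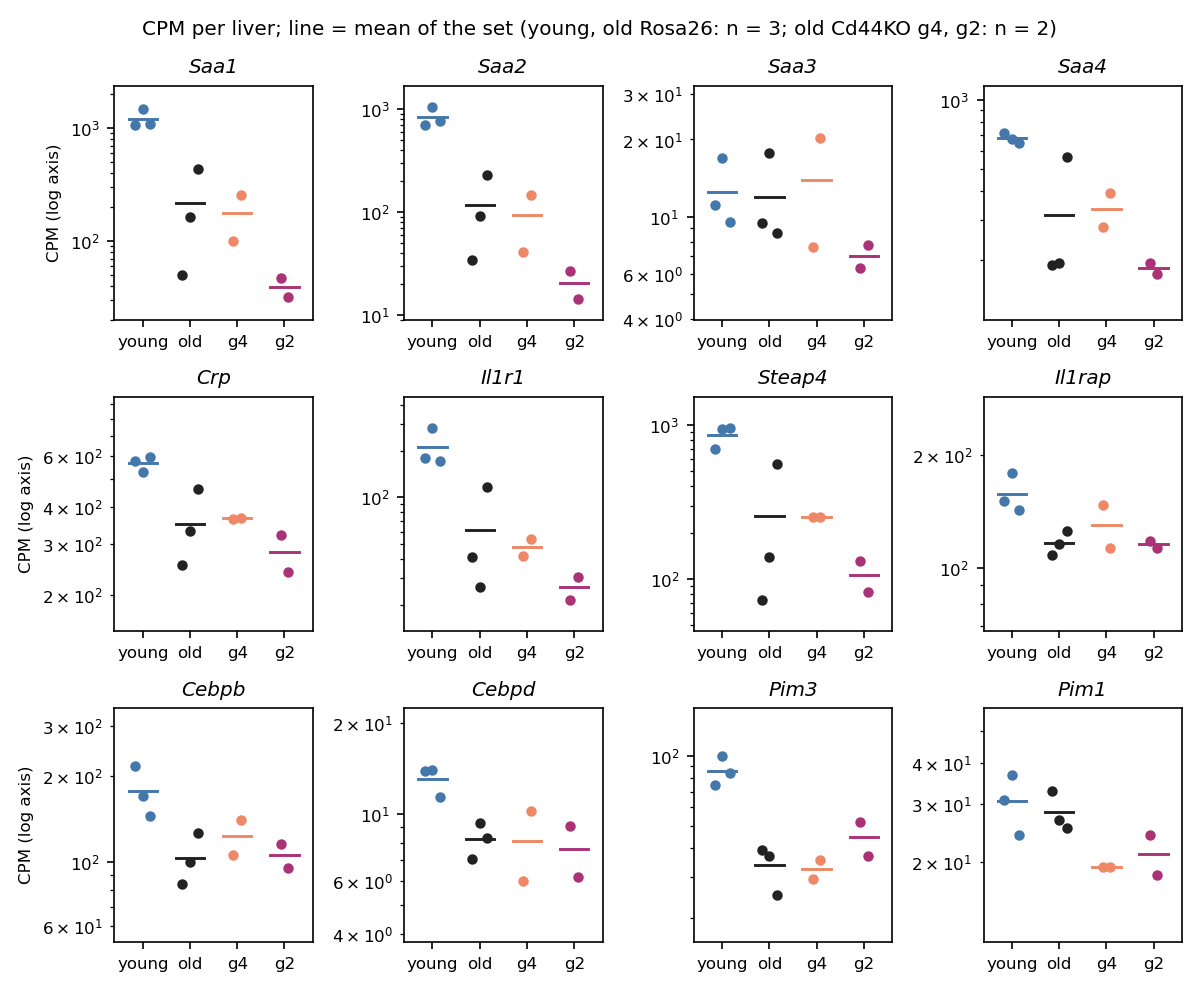
CPM in each liver (points, log axis) and the mean of each set (line) for 12 members, in young Rosa26 (n = 3), old Rosa26 (n = 3), old Cd44KO g4 (n = 2) and old Cd44KO g2 livers (n = 2). Every old liver lies below every young liver for Saa1, Saa2, Saa4, Crp, Il1r1, Steap4, Cebpb, Cebpd and Pim3, whereas Saa3 overlaps between young and old.

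Among the receptors, Il1r1 encodes the signalling receptor for interleukin 1. It had 181, 280 and 172 CPM in young controls and 41.1, 26.2 and 117 CPM in old controls. The livers labelled knockout had 41.4 and 53.8 CPM with g4 and 21.6 and 30.6 CPM with g2. Every old liver was below every young one, and the log2 fold change with age was -1.78 (SE 0.49, adjusted p 0.028 by edgeR), or 3.44-fold lower. The call was lost without any single young liver or old control replicate 1 or 2, with edgeR adjusted p up to 0.104. It was also lost with only the compared groups fitted. Without old control replicate 3 the log2 fold change was -2.65 (adjusted p 0.00224 by edgeR).

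Il1rap, the accessory protein that pairs with this receptor, had 151, 179 and 143 CPM in young controls and 108, 116 and 125 CPM in old controls. The control groups did not overlap, while the livers labelled knockout, with 147, 113, 118 and 113 CPM, reached into the young range. The log2 fold change with age was small, -0.44 (SE 0.15, adjusted p 0.0494 by edgeR), and among the single livers left out only the fit without old control replicate 3 kept it, at -0.50 (adjusted p 0.0294 by edgeR). Of the 6 other alternatives only DESeq2 kept the call (adjusted p 0.0213), and with library size without the members the estimate was -0.13 (adjusted p 0.459 by edgeR). Il1rn, the secreted antagonist of the receptor, had 5.89 to 21.2 CPM in young and 5.65 to 7.25 CPM in old controls, with a log2 fold change of -1.01 (SE 0.46, adjusted p 0.131 by edgeR). Cd14, the coreceptor for lipopolysaccharide on macrophages and hepatocytes, had 4.12 to 10.0 and 4.62 to 8.34 CPM, with a log2 fold change of -0.25 (SE 0.33, adjusted p 0.615 by edgeR). Summed CPM of 8 monocyte and macrophage markers, 6 of which rose with age, was 51.6 to 92.0 in young controls. It was 114, 550 and 169 in old control replicates 1 to 3, and its part in the Cd14 and Il1rn levels was not tested.

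Steap4, a metalloreductase of the plasma and endosomal membrane, had 701, 943 and 951 CPM in young controls and 73.0, 138 and 555 CPM in old controls. The livers labelled knockout had 253 and 254 CPM with g4 and 130 and 81.8 CPM with g2. All old livers were below all young livers, yet the log2 fold change with age of -1.76 (SE 0.64) missed the threshold (adjusted p 0.0693 by edgeR). Without old control replicate 3 it was -3.04 (adjusted p 0.00294 by edgeR).

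Of the regulators, Cebpb and Cebpd encode the C/EBP beta and delta transcription factors that act on acute phase promoters. Cebpb had 216, 170 and 145 CPM in young controls, 83.9, 100 and 126 CPM in old controls, and 106, 140, 116 and 95.5 CPM in livers labelled knockout. The old livers lay entirely below the young ones, and the log2 fold change with age was -0.77 (SE 0.20, adjusted p 0.0235 by edgeR), lost without young replicate 1 or 2 or old control replicate 1 or 2. With library size without the members it was -0.47, and with only the compared groups fitted -0.77, both short of the threshold (edgeR adjusted p 0.0896 and 0.0568). Cebpd had 13.8, 14.0 and 11.4 CPM in young controls, 7.08, 9.30 and 8.30 CPM in old controls, and 5.99, 10.2, 9.09 and 6.19 CPM in livers labelled knockout. Its groups were also apart, with a log2 fold change of -0.67 (SE 0.22) that missed the threshold (adjusted p 0.0505 by edgeR) and passed with DESeq2 (adjusted p 0.0299).

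Pim3, a serine/threonine kinase of the Pim family, whose genes respond to cytokines through STAT factors, had 74.5, 100 and 83.9 CPM in young controls. It had 39.1, 37.0 and 25.2 CPM in old controls and 29.6, 35.5, 52.0 and 37.1 CPM in livers labelled knockout, again without overlap between old and young. The log2 fold change with age was -1.35 (SE 0.22, adjusted p 0.00783 by edgeR), or 2.55-fold lower. It was the one member whose call held in all 12 alternatives tried for the age comparison, with adjusted p from 2.3e-06 to 0.0419. Pim1, its relative, had 31.0, 36.7 and 24.2 CPM in young controls and 32.8, 26.9 and 25.5 CPM in old controls. These overlapped, with a log2 fold change of -0.11 (SE 0.17, 95% interval -0.49 to 0.27, adjusted p 0.669 by edgeR).

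In the negative class, where a decrease is the known response to inflammation, 0 of 4 genes passed in the age comparison. Alb, the main plasma protein, had 95064, 77006 and 69739 CPM in young controls and 53019, 67961 and 83873 CPM in old controls. The ranges overlapped, and the log2 fold change was -0.24 (SE 0.21, 95% interval -0.70 to 0.22, adjusted p 0.421 by edgeR). Ttr, the carrier of thyroxine and retinol-binding protein, had 7543, 8441 and 7954 CPM in young controls and 8644, 5440 and 4960 CPM in old controls. Old control replicate 1 was above the young livers and the other two were below them, which gave a log2 fold change of -0.33 (SE 0.21, adjusted p 0.272 by edgeR) and, without that liver, -0.62 (adjusted p 0.0249 by edgeR). Ambp, the precursor of alpha-1-microglobulin and bikunin, and Itih2, an inter-alpha-trypsin inhibitor heavy chain, differed by -0.30 and 0.08 (adjusted p 0.22 and 0.82 by edgeR). Without old control replicate 3 these were -0.41 and -0.27 (adjusted p 0.0724 and 0.149 by edgeR). Log2 fold changes ran from -2.82 to 0.19 over the 17 positive genes and from -0.33 to 0.08 over the 4 negative genes. A range widens with the number of genes, so these widths do not compare the classes. The class medians of -0.26 and -0.27 became -0.95 and -0.34 without old control replicate 3.

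The other plasma proteins gave 0 calls among 5 tested in the age comparison. Mug1, Mug2 and Pzp are protease inhibitors of the alpha-macroglobulin family. Mug1 had 1903 to 2413 CPM in young controls and 1378, 1469 and 4468 CPM in old controls, so that 1 old liver exceeded and 2 fell short of the young range. Its log2 fold change was 0.22 (SE 0.38, adjusted p 0.706 by edgeR), and -0.56 without old control replicate 3 (adjusted p 0.0342 by edgeR). Mug1 and Mug2 transcripts are 95.2% identical over 4571 aligned bases, so their division of reads is uncertain. Pzp had a log2 fold change of -0.15 (SE 0.33, adjusted p 0.763 by edgeR) and of -0.77 without that liver (adjusted p 0.00711 by edgeR). Itih1 differed by 0.10 (SE 0.20, adjusted p 0.751 by edgeR), and by -0.20 without that liver (adjusted p 0.229 by edgeR). A2m had at most 8 counts in any liver and was at 0 counts in 7 of them.

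Hepatocyte marker RNA was lower in old controls, at 8005 to 11925 summed CPM against 13305 to 14928 in young controls, with 1 of 6 markers lower by the test and a median log2 fold change of -0.40. Old control replicate 3 had the highest value of the 7 old livers. In whole tissue, fewer hepatocytes and less RNA per hepatocyte cannot be told apart, and the part of either in the decreases above was not tested. Saa1 plus Saa2 per 1000 CPM of Alb, the ratio of their counts, was 18.4 to 32.8 in young controls, 1.61 to 7.94 in old controls and 0.727 to 6.26 in the livers labelled knockout. The old livers did not overlap the young livers in this ratio, which does not test the part of hepatocyte RNA either.

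The coefficient of variation (SD over mean) of the positive class had a median of 14.7% in young controls and 54.7% in old controls. The median in old controls was 21.1% when replicate 3 was left out. Over all genes tested the medians were 12.2% and 22.4%, and 15.4% without that liver. In 17 of 17 positive genes the variation was larger in old controls than in young controls, as it was in 72.9% of all genes. It was larger in 12 of 17 when that liver was left out, against 56.5% of all genes. In the livers labelled knockout the class median was 42.7% over both guides together, 15.8% within g2 and 13.5% within g4, where all genes gave 13.4%, 9.68% and 10.2%. Old control replicate 3 was the highest of the 7 old livers in 15 of 17 positive genes and in 25 of 35 members, against 23.8% of all genes. At the other end, knockout replicate 4, a g2 liver, was the lowest old liver in 12 of 17 positive genes, against 11.1% of all genes. Across all members, 10 lay lower in old than in young controls without overlap and 0 higher, with backgrounds of 18.0% and 19.7%; without old control replicate 3, 27 did, with a background of 29.7%. Set against young controls, all 7 old livers were lower in 9 members and higher in 0, with backgrounds of 11.1% and 13.5%.

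**Figure D4:**
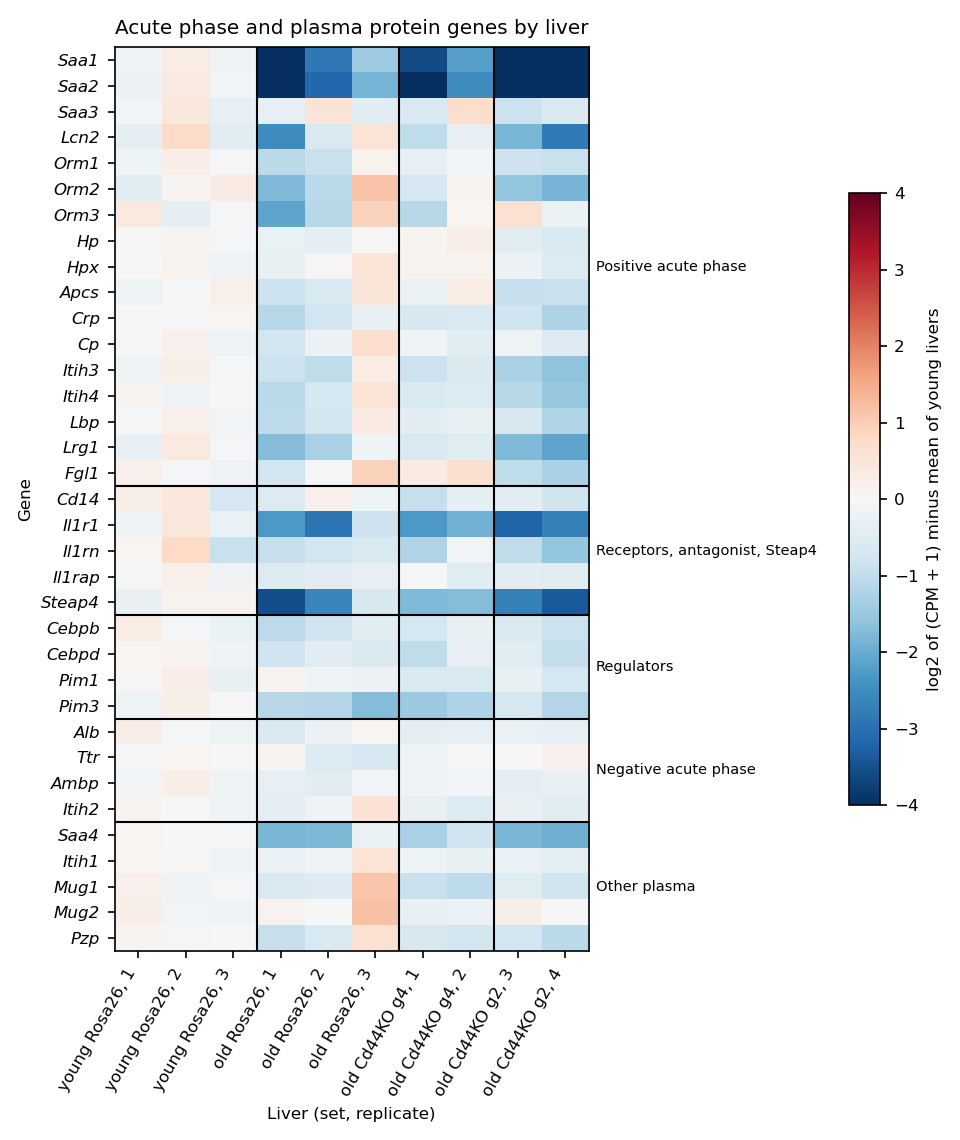
Log2 of CPM plus 1 minus the mean of the young livers (colour) for the 35 tested members (rows, by class) in each of 10 livers (columns). Values below -4 take the darkest blue; Saa1, Saa2, Il1r1 and Steap4 are blue in all 7 old livers, and old Rosa26 replicate 3 is the highest old liver in 25 of 35 rows.

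The comparison of livers labelled knockout with old controls asked what hepatocyte Cd44 editing does in old age. No member passed, and no gene of the 13909 did (0.0%), by edgeR's test. Unadjusted p was under 0.05 for 4 members, Itih2, Mug1, Mug2 and Pim1, all lower, against 4.02% of all genes lower and 2.57% higher. DESeq2 called 7 genes, of which 0 were members. Median log2 fold changes were -0.25 in the positive class, -0.51 in the receptor class, 0.04 in the regulators, -0.03 in the negative class and -0.61 in the other plasma proteins, against -0.02 over all genes. Without old control replicate 3 the same medians were 0.15, 0.13, -0.02, 0.12 and -0.09.

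The Saa1 estimate was -1.0 on the log2 scale in this comparison (SE 0.72, 95% interval -2.57 to 0.58, adjusted p 0.809 by edgeR), which was 0.02 without old control replicate 3. For Saa2 the corresponding values were -1.05 (SE 0.72, adjusted p 0.798 by edgeR) and -0.14. Intervals of this width leave both a lower and a higher level possible. Alb was at 61874, 64276, 65910 and 63485 CPM in the livers labelled knockout, inside the old control range, with a log2 fold change of -0.10 (SE 0.19, adjusted p 0.94 by edgeR). Ttr, at 7131, 7792, 7965 and 9026 CPM, also overlapped the old controls, with 0.33 (SE 0.20, adjusted p 0.794 by edgeR). Pim1 was the one member without overlap, at 19.4, 19.3, 24.2 and 18.3 CPM against 25.5 CPM or more in old controls, with a log2 fold change of -0.48 (SE 0.16, adjusted p 0.744 by edgeR). Of all genes, 3.26% were lower and 2.84% higher without overlap. Mug1 was at 1131, 1000, 1492 and 1189 CPM, with a log2 fold change of -1.02 (SE 0.35, adjusted p 0.744 by edgeR), and -0.24 without old control replicate 3.

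Against young controls, 9 members were lower in the livers labelled knockout and 0 were higher, where 4.97% of all genes were lower and 6.64% higher. This comparison shares its young livers with the age comparison, so values are set side by side only. Saa2 differed by -3.87 (SE 0.77, adjusted p 0.0186 by edgeR) and Saa1 by -3.47 (SE 0.76, adjusted p 0.0235 by edgeR), against -2.82 and -2.47 with age. Saa1 lost this call without any single young liver or knockout replicate 3 or 4 (edgeR adjusted p up to 0.095). Saa2 lost it without young replicate 2 or 3 or knockout replicate 3 (edgeR adjusted p up to 0.0851). Il1r1 differed by -2.51 (SE 0.46, adjusted p 0.0147 by edgeR), Steap4 by -2.27 (SE 0.59, adjusted p 0.0358 by edgeR) and Saa4 by -1.39 (SE 0.38, adjusted p 0.041 by edgeR). Pim3 differed by -1.16 (SE 0.20, adjusted p 0.0134 by edgeR), Crp by -0.80 (SE 0.21, adjusted p 0.0348 by edgeR), Cebpd by -0.73 (SE 0.21, adjusted p 0.0448 by edgeR) and Pim1 by -0.59 (SE 0.16, adjusted p 0.0394 by edgeR). Cebpd, Pim1 and Saa4 lost this call without any one of the 7 livers, and with library size without the members (edgeR adjusted p 0.171, 0.197 and 0.0518). Crp lost it in that setting too (-0.49, adjusted p 0.0793 by edgeR) and held without 1 of the 7 livers, as Steap4 did. Cebpb and Il1rap, which passed with age, had -0.63 and -0.36 here (adjusted p 0.0517 and 0.0934 by edgeR). In the fit of all 10 livers by group with TMM factors, all 35 estimates were at or below 0. Alternatives put several members above 0, and Mug2 was at 0.23 with library size without the members. The highest estimates over the alternatives were 0.32 for Ttr, 0.23 for Orm3, 0.22 for Hpx, 0.21 for Fgl1 and 0.19 for Hp. They were 0.10 for Saa3, 0.07 for Ambp and 0.02 for Itih1. The median was -0.63 against 0.03 over all genes, and 18 members were lower and 0 higher without overlap (18.8% and 21.1% of all genes). Without young replicate 2, which had the highest Saa1, Saa2 and Il1r1 values, 0 members passed and 56 genes did. Without any other single liver of these groups 2 to 7 members passed, and Il1r1 and Pim3 passed each time.

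The livers labelled g4 and g2 were then set against each other. Cd44 itself was higher in both g4 livers than in both g2 livers, with a log2 difference of 0.64 (SE 0.36, unadjusted p 0.107 by edgeR). Its part in the differences below was not tested. Both g4 livers were above both g2 livers in 14 of 17 positive acute phase genes, and below them in 0, while 18.1% of all genes were higher and 20.4% lower in this way. The remaining 3 were Saa3, Orm3 and Cp. By edgeR's test 0 members passed, as 3 of 13909 genes did (0.0216%), so no single member differed after adjustment, with 2 livers on each side. Unadjusted p was under 0.05 for 6 members, all positive class genes higher with g4, against 2.19% of all genes higher. The class median of g4 minus g2 was 0.73 on the log2 scale, and it was 0.00 over all genes and -0.05 in the negative class.

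Fgl1 had 647 and 795 CPM with g4 and 254 and 209 CPM with g2, and the old controls, at 299, 495 and 968 CPM, were all above g2 and overlapped g4. Its log2 difference was 1.64 (SE 0.43, unadjusted p 0.00341, adjusted p 0.499 by edgeR). Hp had 6051 and 6672 CPM with g4 and 4068 and 3621 CPM with g2, above and below all old controls, for a log2 difference of 0.73 (SE 0.21, adjusted p 0.621 by edgeR). DESeq2 called these as the only 2 members past its adjusted threshold. Lrg1 had 652 and 716 CPM with g4 and 292 and 230 CPM with g2, a log2 difference of 1.39 (SE 0.44, adjusted p 0.796 by edgeR). Saa1 and Saa2 each differed by 2.18 (SE 0.79, adjusted p 0.90 by edgeR). Apcs had 139 and 208 CPM with g4 and 88.6 and 90.1 CPM with g2, a log2 difference of 0.96 (SE 0.39, adjusted p 1.0 by edgeR).

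Orm2 had 60.5 and 105 CPM with g4 and 32.3 and 26.1 CPM with g2. In the other classes Il1r1, Steap4, Ambp, Saa4 and Pzp were higher in both g4 livers, and Pim3, Ttr, Mug1 and Mug2 were higher in both g2 livers. Against old controls, 12 members were lower with g2 without overlap, 9 of them positive class genes, with a background of 10.0%, and 0 passed the edgeR test, as 0.0216% of all genes did. Without old control replicate 3, 12 members were still lower with g2 and the background was 19.8%. With g4, Hp was the 1 positive gene above all old controls (7.05% of all genes), and without old control replicate 3 it was 10 of 17, with a background of 17.1%. Hepatocyte marker RNA was 9398 to 10272 summed CPM with g2 and 8925 to 10934 with g4, which overlapped, as did the neutrophil, Kupffer cell, macrophage, stellate and erythroid sums. Other marker sums did not overlap between guides. Cholangiocyte marker RNA was 119 to 165 summed CPM with g2 and 80.8 to 95.4 with g4. Endothelial markers summed to 117 to 142 CPM with g2 and 147 to 173 with g4, T cell markers to 7.06 to 8.15 and 10.5 to 19.8, and B and plasma cell markers to 21.6 to 24.4 and 24.7 to 29.8. The part of these cells in the differences between guides was not tested. The 2 livers of a guide share that guide, and guide and animal cannot be told apart with 2 livers each.

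**Figure D5:**
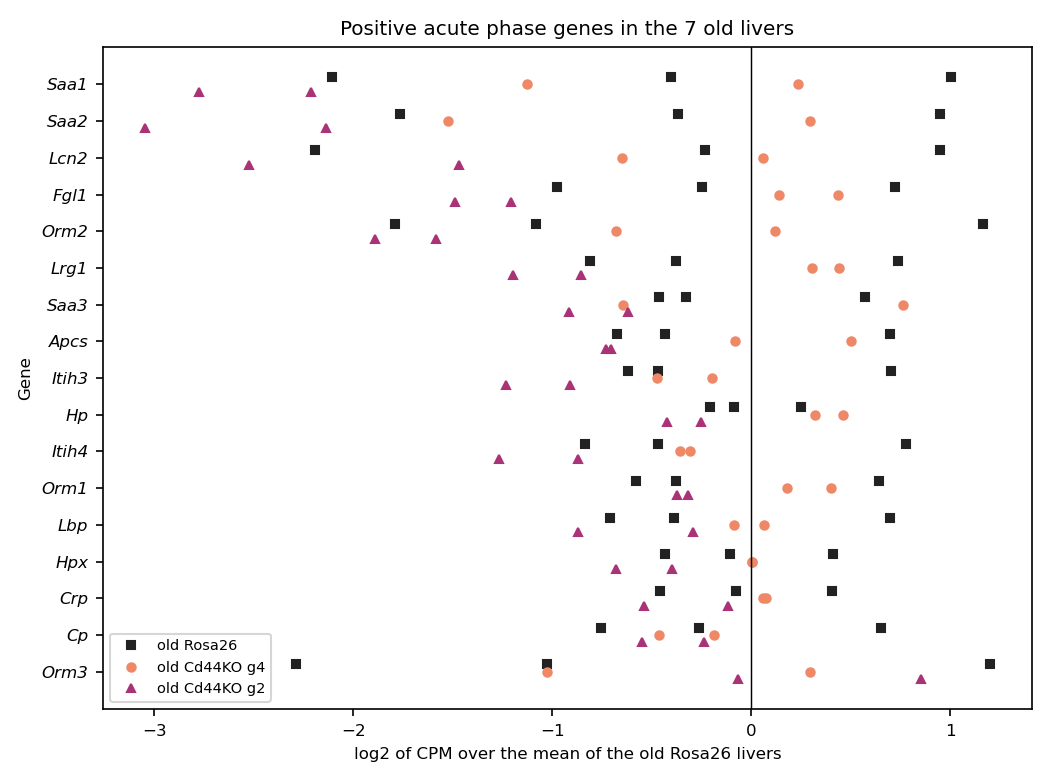
Log2 of CPM over the mean of the old Rosa26 livers for the 17 positive acute phase genes in the 7 old livers: old Rosa26 (black squares), old Cd44KO g4 (orange circles) and old Cd44KO g2 (purple triangles). Both circles lie to the right of both triangles in 14 of 17 rows, and in 9 rows both triangles lie to the left of all squares.

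Genes of the same pathway outside the set were read from the same fit. Of 10 other positive acute phase genes, 1 fell and 0 rose with age, with a median log2 fold change of -0.52, near the 8.66% of all genes that fell (14.1% rose). The gene was Serpina3n, a serine protease inhibitor, which had 1613, 2107 and 1553 CPM in young controls and 221, 397 and 852 CPM in old controls (log2 fold change -1.84, SE 0.40, adjusted p 0.0129 by edgeR). When old control replicate 3 was left out, 8 of the 10 fell, against 17.0% of all genes. That count was made after the high values of this liver were seen, so the share of all genes is no like background. Against old controls, 0 of 10 passed in the livers labelled knockout, and the largest difference was C3, the central complement component, at -0.71 (SE 0.34, adjusted p 0.75 by edgeR). Against young controls 5 of 10 were lower there, against 4.97% of all genes, led by Serpina3n at -2.39, Fga, a fibrinogen chain, at -1.46 and Serpina3m at -1.36 (edgeR adjusted p 0.00938, 0.0411 and 0.0359).

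Of 8 other negative acute phase genes, 0 fell with age and 1 rose, near the 8.66% and 14.1% of all genes. Serpina6, which encodes the corticosteroid carrier of plasma, had 189, 148 and 183 CPM in young and 233, 258 and 226 CPM in old controls (log2 fold change 0.46, SE 0.14, adjusted p 0.0366 by edgeR). It was also the 1 that differed from young controls in the livers labelled knockout, at 0.56 (SE 0.13, adjusted p 0.0288 by edgeR). Against old controls 0 of 8 passed, and the largest difference was Trf, transferrin, at -0.42 (SE 0.21, adjusted p 0.75 by edgeR).

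Among 20 upstream signalling genes 19 were tested, and Il6 itself had at most 5 counts in any liver. With age 1 rose and 4 fell, against 14.1% and 8.66% of all genes, of which a selection is given. Il1a, which encodes interleukin 1 alpha, had 2.63, 2.18 and 1.90 CPM in young controls and 5.16, 7.48 and 5.77 CPM in old controls, without overlap (log2 fold change 1.45, SE 0.25, adjusted p 0.0081 by edgeR). Hnf4a, a transcription factor of hepatocyte identity, fell by 0.96 on the log2 scale (SE 0.22, adjusted p 0.0147 by edgeR). Myd88, the adaptor of the interleukin 1 receptor, fell by 0.71 (SE 0.15, adjusted p 0.0115 by edgeR), with 42.0, 48.2 and 38.8 CPM in young and 23.7, 25.9 and 29.1 CPM in old controls. Between the livers labelled knockout and old controls 0 of 19 passed, the largest difference being Il6ra, the interleukin 6 receptor, at -0.77 (SE 0.26, adjusted p 0.744 by edgeR). Against young controls 1 was higher and 7 were lower in those livers, against 6.64% and 4.97% of all genes, among them Il6ra at -1.47, Stat3 at -1.02 and Hnf4a at -0.94 (edgeR adjusted p 0.014, 0.0462 and 0.023).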

How the data were processed

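Polyadenylated RNA of 10 whole livers was sequenced on an Element AVITI instrument after library preparation with the Watchmaker kit, per the labels' protocols. The values deposited are raw counts, as whole numbers for each gene symbol in each liver, without normalization by the authors. The submitters' processing notes name FastQC 0.11.8, Trim Galore 0.4.4, STAR 2.5.3a, HOMER and the genome build mm10. Their roles, the annotation and strand settings are not given in the sources used here, so reads of overlapping, antisense and near-identical genes may be divided wrongly. Reads carry no molecular identifiers, so limits from depth cover counting error only; 3 counts equal 0.131 to 0.198 CPM.

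The members and lists were chosen with earlier results of these data known. Unchanged counts were tested in edgeR 4.0.16 (R 4.3.3): TMM factors, filterByExpr (minimum count 10, minimum total 15), 1 coefficient per group over 10 livers, the quasi-likelihood test and Benjamini-Hochberg adjustment over 13909 genes. SE is the log2 fold change divided by the square root of F, and 95% intervals use the t distribution with the fit's degrees of freedom. Guides were compared in a fit with 4 sets. Replicate numbers were given in accession order and pair no livers. Counts of replicate pairs differed beyond counting noise (chi-square per degree of freedom 20.3 to 170). The steps were tested on simulated data. Alternatives were DESeq2 1.42.0, RLE factors, library size without the members (and without TMM factors), no filter, fewer groups and leaving out each liver. Transcript lengths come from GENCODE M21 on GRCm38, matched by symbol, transcript identity from pairwise alignment, and promoters from RefSeq on GRCm38.p6; transferrin was matched as Trf and Trac was not matched. Values per liver are given for members that passed in any comparison and for Saa1, Saa2, Lcn2, Orm2, Hp, Apcs, Cebpb, Cebpd, Alb and Ttr; Saa3, Fgl1, Lrg1 and Mug1 were added after their values were seen. From each pathway list up to 3 passing genes per direction, or else the largest difference, are named, except 1 gene that is not reported here.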

Additional observations from a re-analysis of the deposited data

Results flagged for a closer look

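In the livers labelled knockout, 35 members were examined for a single liver far from the other 3, by the gap to the nearest liver divided by the whole range; about 1.75 groups would exceed the 95% limit by chance, and 2 did. Saa3 had 20.2 CPM in replicate 2 (g4) against 6.31 to 7.76 CPM in the others, a ratio of 0.896. Il1rap had 147 CPM in replicate 1 (g4) against 113 to 118 CPM in the others, a ratio of 0.854.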

How the results depend on the processing

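No paired analysis was possible because replicate numbers here only follow the order of the records and tie no animals together. Leaving out livers in turn, 396 to 5327 genes and 1 to 17 members passed in the age comparison, 0 to 3 genes and 0 members in the comparison of the livers labelled knockout with old controls, and 56 to 1652 genes and 0 to 7 members in the comparison of those livers with young controls. Members lower in old controls without overlap numbered 11 to 27 (27 without replicate 3), an alternative chosen after seeing the data, as were the pathway and overlap counts and the coefficients of variation without old control replicate 3 and within guides. With library size taken without the members, and without TMM factors, 4 members passed with age (3 lower and Mug2 higher). In the livers labelled knockout against young controls 3649 genes and 5 members passed. This scaling moved the median of all genes to 0.35 and 0.34, and the negative class medians to 0.04 and 0.02. Leaving out the members and leaving out TMM factors were not tried apart. With only the compared groups fitted, 1192 genes and 2 members passed with age, and 4223 genes and 17 members between the livers labelled knockout and young controls. DESeq2 called 2718 genes and 16 members there, 7 genes between the livers labelled knockout and old controls, and 2 members between guides. Leaving out livers in turn gave -0.56 to 0.50 for Mug1 and -0.56 to 0.24 for the median of the other plasma class with age. In the comparison of the livers labelled knockout with old controls it gave medians of -0.73 to 0.13 for the receptor class and -0.11 to 0.12 for the negative class. The lower bounds with age and the upper bounds for the knockout were those without old control replicate 3. The cause of these shifts was not tested. Depth did not limit the 35 tested members, whose counts exceeded the floor in every liver; A2m and Il6 were limited by it.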
